A study of Homo sapiens with 12 samples.

Results

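The genes described here are 9 components of the tight junction: the claudins CLDN1, CLDN3, CLDN4, CLDN7, CLDN8 and CLDN12, the membrane proteins OCLN and F11R, and the scaffold TJP1. They were chosen by name from the 39368 gene symbols that both count tables list, and all 9 were found. Their levels and their response to silencing MUC1 were examined in CAL27 and HSC3 cells, which are established HPV-negative lines of head and neck squamous cell carcinoma. Both lines carried a tetracycline-inducible shRNA against MUC1 (tet-MUC1shRNA) on a puromycin-selected lentiviral vector. Cells of each line received vehicle (0.1% DMSO) or 500 ng/ml doxycycline (DOX) for 7 days, which gave 4 groups of 3 mRNA libraries, 12 in all. CAL27 cells grew in DMEM and HSC3 cells in MEM, both with serum, so that line, medium and count table cannot be told apart in a comparison of the lines. No library of DOX-treated cells with a control shRNA was analysed here, so an effect of DOX itself cannot be told apart from that of losing MUC1.

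Tight junctions seal the space between neighbouring epithelial cells near their apical border. Claudins, which cross the membrane repeatedly, form the strands of the junction, and the mixture of claudins sets whether a strand acts as a barrier or as a pore for ions. Occludin (OCLN) lies in the same strands, junctional adhesion molecule A (F11R) is an immunoglobulin-like adhesion receptor beside them, and ZO-1 (TJP1) ties the membrane proteins to actin from the cytoplasmic side. In stratified squamous epithelium, CLDN1 is a barrier protein of the skin and oral mucosa.

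Total counts were 89730914 to 130393198 in the vehicle libraries and 92866845 to 169065103 in the DOX libraries. The number of counts that stood for 1 molecule was estimated from how often a weakly expressed gene had no count in a library. The estimate was 2.46 to 3.34 counts per molecule in CAL27 cells, 4.01 to 6.99 in HSC3 cells with vehicle and 6.94 to 16.3 in HSC3 cells with DOX. Differences between replicates also leave genes without a count and were not separated from repeated counting, so these values may be too high. Only 22.09% to 35.74% of small counts were odd numbers in a library, and the part of this in the estimate was not tested. MUC1 was lower with DOX in both lines, at 55.3 ± 2.79 against 2.98 ± 0.249 CPM (counts normalised to library size, mean ± SD, n = 3) in CAL27 cells and 1.76 ± 0.186 against 0.236 ± 0.0928 CPM in HSC3 cells. MUC1 was thus already scarce in HSC3 cells before silencing. Squamous markers were present in every library, and 5 of the 7 (KRT5, KRT14, KRT6A, KRT17 and TP63) fell with DOX in each line, the summed level going from 6150 to 6410 CPM down to 2890 to 3090 CPM in CAL27 cells and from 5720 to 6450 CPM down to 2580 to 3030 CPM in HSC3 cells. CDH1 did not pass the test in either line, EPCAM rose in both (log2 0.40 and 0.87), and the part of the squamous markers in the results on junction genes was not tested. Summed immune markers (4 genes) reached at most 0.536 CPM and summed fibroblast markers (6 genes) at most 14.1 CPM, with COL3A1 at 0 in all 12 libraries. Summed endothelial markers (3 genes) were 14.9 to 15.3 CPM in CAL27 cells with vehicle, 8.83 to 12.2 CPM with DOX and at most 0.52 CPM in HSC3 cells. In CAL27 cells this sum was almost all CDH5, at 14.6 CPM with vehicle and 9.97 CPM with DOX on average. PECAM1 and VWF were at 0.036 and 0.49 CPM there with vehicle.

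The start of CLDN1 is shown first, because it was the most abundant member and because a second claudin gene begins beside it. CLDN1 (GRCh38, chr3:190305707-190322446, minus strand) and CLDN16, a claudin known for magnesium transport in the kidney, are annotated on opposite strands with starts 95 bases apart. The 94 bases between them (chr3:190322447-190322540, minus strand) are 74.5% G or C. Capitals mark the 2 GC boxes, which were searched as GGGCGG on both strands.
CLDN1 to CLDN16 interval: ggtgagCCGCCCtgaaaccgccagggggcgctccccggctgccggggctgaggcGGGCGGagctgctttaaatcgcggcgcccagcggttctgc

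TJP1 is shown beside it as the member that differed from vehicle by nearly the same amount in both lines. The 250 bases before its most upstream RefSeq start lie on the minus strand of GRCh38.p14, at chr15:29969050-29969299, and hold 2 GC boxes (capitals) and 1 copy of CAGGTG, the E-box bound by SNAIL and ZEB repressors.
TJP1 upstream window: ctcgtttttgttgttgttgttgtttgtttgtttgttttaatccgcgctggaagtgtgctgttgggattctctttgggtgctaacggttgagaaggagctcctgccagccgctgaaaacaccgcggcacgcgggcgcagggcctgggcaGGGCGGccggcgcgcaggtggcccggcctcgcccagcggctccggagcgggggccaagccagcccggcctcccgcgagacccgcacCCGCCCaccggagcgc

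RefSeq promoter windows matched 7 of the 9 members, in 12 windows of 250 bases, and CLDN8 and F11R were not matched. The E-box was found in 1 of the pair of CLDN7 windows (4 copies), in both OCLN windows (1 copy each) and in 1 of the 4 TJP1 windows, and in none of those of CLDN1, CLDN3, CLDN4 and CLDN12. Among all 35116 promoter windows, 17.5% held CAGGTG or its complement and 0.464% held 3 or more copies. The GC box was in windows of CLDN1 (2 copies), CLDN3 (4), CLDN4 (1), CLDN7 (1), OCLN (1) and TJP1 (up to 3), against 42.6% of all windows. TTCNNNGAA, the core bound by STAT factors, was found only in the CLDN12 window among these 12, and TGANTCA, the AP-1 core, only in that of CLDN4 (2 copies). Each of these cores was in 6.57% of all windows.

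Levels were compared between genes after division by the length of the gene's exons (CPM per kb). CLDN1 was far above every other member in all 4 groups, at 1082 ± 44.9 CPM per kb in CAL27 cells with vehicle, 389.8 ± 29.7 with DOX, and 155.1 ± 14.2 and 176.5 ± 21.2 in HSC3 cells with vehicle and DOX (SD, n = 3). This single gene took 0.415% to 0.448% of all counts in CAL27 cells with vehicle. Of the summed level per length of the 24 claudin genes in the tables, CLDN1 made up 97.4%, 93.6%, 87.0% and 89.4% in the same order of groups.

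TJP1, F11R and CLDN12 followed CLDN1 in that order of means in every group. In HSC3 cells with DOX the libraries of CLDN12 (8.93 ± 1.78 CPM per kb) and CLDN7 (8.05 ± 0.934) overlapped. TJP1 (16.6 ± 0.389 CPM per kb) and F11R (15.95 ± 0.188) were not separated in CAL27 cells with vehicle, where their libraries overlapped, whereas TJP1 stood above F11R in every library of the other 3 groups. Counted on the longest transcript in place of all exons, CLDN12 took the place above F11R in 3 of the 4 groups and OCLN that above CLDN8 in CAL27 cells with vehicle. The lower part of the order differed between the lines. In CAL27 cells with vehicle it ran CLDN4 (5.11 CPM per kb), CLDN7 (3.09), CLDN8 (1.60), OCLN (1.05) and CLDN3 (0.41), each above the next in every library. In HSC3 cells with vehicle CLDN7 came first (7.88 CPM per kb), OCLN (1.28 ± 0.338) and CLDN4 (0.87 ± 0.105) overlapped, and CLDN8 and CLDN3 were at or near 0.

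**Figure D1:**
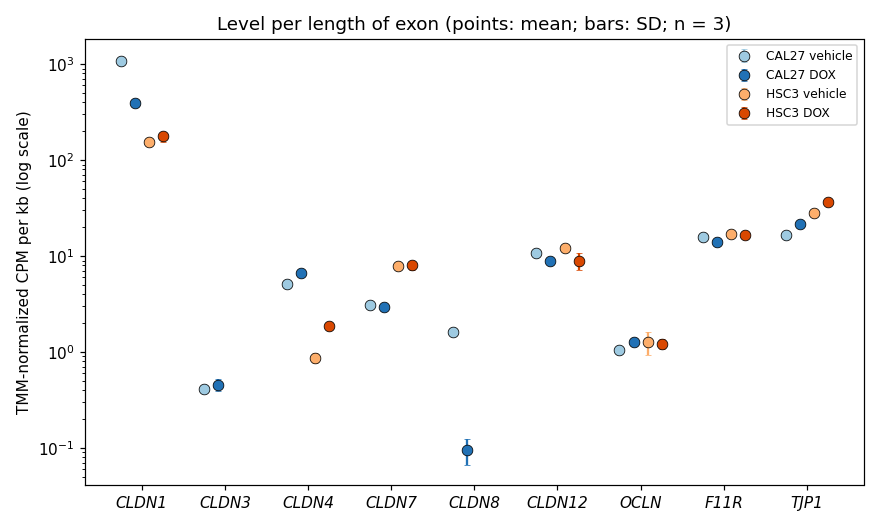
Level of each gene in TMM-normalized CPM per kb of exon on a log axis; points are means of 3 libraries and bars are SDs, coloured by group. CLDN1 lies above all other genes in each group, at 155.1 to 1082 CPM per kb, and CLDN3 and CLDN8 in HSC3 cells are not drawn because they were at or near 0.

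The summed level of the other 23 claudins was far more even across groups than that of CLDN1. It was 28.5 ± 1.36 CPM per kb in CAL27 cells with vehicle, 26.4 ± 1.12 with DOX, 23.0 ± 0.389 in HSC3 cells with vehicle and 20.9 ± 1.70 with DOX. Of all claudin level, with CLDN1 included, CLDN12 and CLDN7 made up 6.86% and 4.43% in HSC3 cells with vehicle, against 0.97% and 0.278% in CAL27 cells with vehicle. The lower CLDN1 level in HSC3 cells raises both shares. CLDN12 itself was at 12.2 CPM per kb in HSC3 and 10.8 in CAL27 cells with vehicle, and CLDN7 at 7.88 and 3.09.

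The lines were compared under vehicle to ask how their junction genes differed before MUC1 was silenced. CLDN1 and CLDN4 were several-fold lower in HSC3 than in CAL27 cells, CLDN3 and CLDN8 were found in CAL27 and were at or near 0 in HSC3, and CLDN7 and TJP1 were higher in HSC3. An adjusted p, here and throughout, comes from edgeR's quasi-likelihood test and was adjusted by the Benjamini-Hochberg method over every gene in the fit, and a gene passed with an adjusted p under 0.05. All 9 members were tested: 4 passed as lower in HSC3 cells, against 32.3% of all 20694 genes tested, and 2 passed as higher, against 30.6%. The 4 include CLDN3 and CLDN8, which entered the fit only through their CAL27 counts, so that lower was the only call open to them. CLDN1 and CLDN4 were measured in both lines. With the replicate number as a block over the vehicle libraries, 4 passed as higher. With a fold change above 2 as well, the same 4 were lower (18.7% of all genes) and 1 was higher (13.2%). The median of all genes in this comparison was -0.12 on the log2 scale.

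For CLDN1 the CAL27 vehicle libraries held 4032, 3737 and 4006 CPM and the HSC3 vehicle libraries 553.3, 516.9 and 618.4 CPM. The groups were far apart, with a log2 difference of -2.80 (SE 0.0905, adjusted p = 4.9e-13), or 6.97-fold lower in HSC3. CLDN4, a barrier claudin that binds Clostridium perfringens enterotoxin, was at 24.5, 23.4 and 24.2 CPM in CAL27 and at 4.65, 3.92 and 3.70 CPM in HSC3 cells, with no overlap and a log2 difference of -2.55 (SE 0.0907, adjusted p = 1.4e-12). CLDN7, which associates with the adhesion protein EPCAM, had the opposite order. Its libraries held 7.99, 7.62 and 7.46 CPM in CAL27 and 20.2, 18.8 and 19.9 CPM in HSC3 cells, a log2 difference of 1.35 (SE 0.0981, adjusted p = 6.7e-09) or 2.55-fold. TJP1 was likewise higher in each HSC3 library, at 315.5, 312.5 and 329.5 CPM against 191.6, 182.8 and 188.0 CPM (log2 0.77, SE 0.0543, adjusted p = 5e-09).

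CLDN3, the second enterotoxin receptor, was scarce in CAL27 cells, with 75, 58 and 59 counts in the vehicle libraries (0.544, 0.535 and 0.487 CPM), and had no count in the 3 HSC3 vehicle libraries. CLDN8, known as a barrier claudin of the distal nephron and colon, had 475, 354 and 406 counts in CAL27 vehicle libraries (3.44, 3.27 and 3.35 CPM) and 0, 2 and 0 counts in HSC3. If counts were independent, a count of 0 would allow up to 3 counts, or 0.0202 to 0.0365 CPM in the 6 HSC3 libraries. By the estimate of counts per molecule that is less than 1 molecule (0.184 to 0.749), and counts of the same molecule are not independent. On that estimate these limits are too low. A limit in molecules was not computed. No fold difference or p-value is given for these genes, which were not detectable at this depth rather than shown to be absent. The limits cover counting error only.

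CLDN12, OCLN and F11R did not pass between the lines, but with the replicate number as a block CLDN12 (adjusted p = 0.0041) and OCLN (adjusted p = 0.047) passed as higher in HSC3 cells. CLDN12 was at 67.2 to 77.0 CPM in CAL27 and 80.4 to 82.6 CPM in HSC3 cells (log2 0.17, 95% interval -0.05 to 0.40, adjusted p = 0.16). It also passed when only the vehicle libraries were fitted without the block (adjusted p = 0.0065) and when HSC3 DOX replicate 1 was left out (adjusted p = 0.017), and its difference turned to -0.10 when libraries were scaled by their totals. F11R was at 80.0 to 81.8 CPM and 82.1 to 88.6 CPM (log2 0.09, 95% interval -0.04 to 0.22, adjusted p = 0.23), and by library totals was lower in HSC3 (log2 -0.18, adjusted p = 0.0089). OCLN overlapped between the lines, at 10.7 to 12.7 CPM in CAL27 and 10.9, 13.7 and 18.5 CPM in HSC3 cells (log2 0.29, 95% interval -0.04 to 0.62, adjusted p = 0.12), and passed without the lowest of these, HSC3 vehicle replicate 2 (adjusted p = 0.015). Groups did not overlap for 8 of the 9 members, all but OCLN, against 74.3% of all genes. For CLDN3 and CLDN8 this rests on counts at or near 0 in HSC3 cells.

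**Figure D2:**
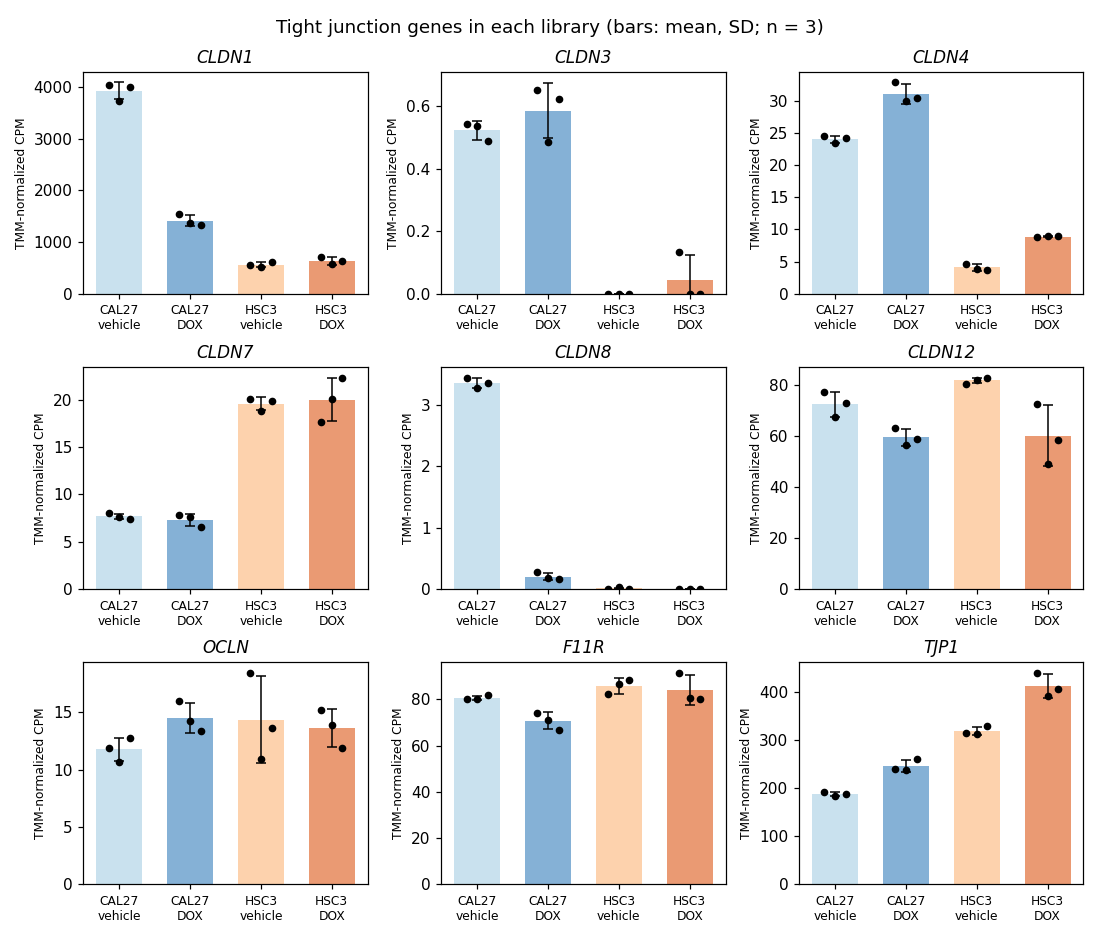
TMM-normalized CPM of each gene in the 12 libraries (points), with the mean (bar) and SD of the 3 libraries of each group; every panel has its own axis from 0. CLDN1 drops from 3737 to 4032 CPM with vehicle to 1332 to 1536 CPM with DOX in CAL27 cells, and CLDN4 lies higher with DOX in both lines.

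In CAL27 cells, DOX was compared with vehicle to ask which junction genes changed as MUC1 was silenced. CLDN1 and CLDN8 fell by more than 2-fold, CLDN12 and F11R fell slightly, CLDN4, OCLN and TJP1 rose slightly, and CLDN3 and CLDN7 did not pass. Thus 4 of 9 members tested were lower, against 21.8% of all 19239 genes tested, and 3 were higher, against 22.6%. With a fold change above 2 the counts were 2 lower (5.11% of all genes) and 0 higher (1.31%). Groups did not overlap for 7 of the 9, against 51.8% of all genes. In bulk libraries like these, fewer cells of a kind and less RNA per cell cannot be told apart.

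CLDN1 fell from 4032, 3737 and 4006 CPM with vehicle to 1536, 1374 and 1332 CPM with DOX. The groups lay far apart, and the log2 change was -1.48 (SE 0.0501, adjusted p = 1.3e-14), or 2.78-fold. CLDN1 in silenced CAL27 cells nevertheless stayed above its level in HSC3 cells in every library. CLDN8 fell further in proportion, from 475, 354 and 406 counts (3.44, 3.27 and 3.35 CPM) to 28, 18 and 20 counts (0.268, 0.175 and 0.155 CPM). The log2 change was -4.09 (SE 0.195, adjusted p = 1.4e-12), or 17-fold. By the estimate of about 3 counts per molecule, the DOX libraries held only a handful of molecules. Of the claudin sum, CLDN8 was a small part even before DOX, at 0.144%.

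CLDN4 moved the other way, from 24.5, 23.4 and 24.2 CPM to 32.8, 29.9 and 30.5 CPM (log2 0.37, SE 0.0509, adjusted p = 5.3e-06). With CLDN1 lower, CLDN4 went from 0.46% to 1.59% of the claudin sum and CLDN12 from 0.97% to 2.13%, although CLDN12 itself fell in CPM. CLDN12, which lacks the PDZ-binding tail of other claudins, held 77.0, 67.2 and 72.6 CPM with vehicle and 63.0, 56.4 and 58.5 CPM with DOX (log2 -0.29, SE 0.0489, adjusted p = 6.3e-05). CLDN3, at 0.487 to 0.544 CPM and 0.485 to 0.65 CPM, and CLDN7, at 7.46 to 7.99 CPM and 6.60 to 7.82 CPM, overlapped between the groups (adjusted p = 0.63 and 0.52). The 95% interval of the CLDN7 change was -0.25 to 0.10 on the log2 scale, and that of the CLDN3 change was -0.35 to 0.68.

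Outside the claudins, OCLN was at 11.9, 10.7 and 12.7 CPM with vehicle and at 15.97, 14.2 and 13.3 CPM with DOX (log2 0.30, SE 0.0767, adjusted p = 0.0034). F11R fell from 80.0, 80.3 and 81.8 CPM to 74.3, 71.1 and 66.9 CPM (log2 -0.19, SE 0.0425, adjusted p = 0.00084). TJP1 rose from 191.6, 182.8 and 188.0 CPM to 240.9, 238.6 and 261.0 CPM (log2 0.39, SE 0.0409, adjusted p = 1.2e-07). The 3 genes had no overlap between groups, and each change was less than 1.5-fold in size. In a fit of all 12 libraries, which shares the larger spread of the HSC3 libraries, OCLN (adjusted p = 0.2) and CLDN12 (adjusted p = 0.061) did not pass.

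**Figure D3:**
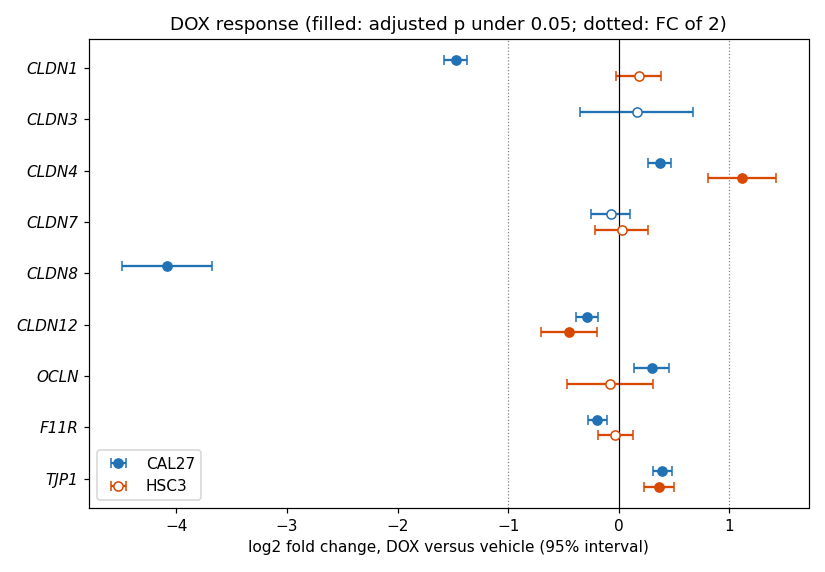
Log2 fold change of DOX against vehicle for each gene in CAL27 (blue) and HSC3 (orange) cells, with 95% intervals; filled points have an adjusted p under 0.05 and dotted lines mark a fold change of 2. CLDN1 and CLDN8 lie to the left of the line in CAL27 cells, at -1.48 and -4.09, and CLDN4 lies to the right of it in HSC3 cells, at 1.11; CLDN3 and CLDN8 were not tested in HSC3.

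The same comparison in HSC3 cells gave fewer passing changes. Standard errors were larger there than in CAL27 cells (0.176 against 0.0767 for OCLN, 0.0716 against 0.0425 for F11R), so small changes were less able to pass. CLDN4 and TJP1 rose, CLDN12 fell, and CLDN1, CLDN7, OCLN and F11R did not pass, while CLDN3 and CLDN8 were too low to be tested. Of the 7 members tested, 1 was lower, against 15.4% of all 18021 genes tested, and 2 were higher, against 13%. With a fold change above 2, 0 were lower (4.4% of all genes) and 1 was higher (1.58%). Groups did not overlap for 3 of the 7, against 42.6% of all genes.

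CLDN4 was at 4.65, 3.92 and 3.70 CPM with vehicle and at 8.74, 9.01 and 8.90 CPM with DOX. Every DOX library was above every vehicle library, with a log2 change of 1.11 (SE 0.139, adjusted p = 0.00015) or 2.16-fold, and the DOX level in HSC3 cells was still below that of CAL27 cells with vehicle. TJP1 rose from 315.5, 312.5 and 329.5 CPM to 441.0, 391.5 and 406.7 CPM (log2 0.37, SE 0.0611, adjusted p = 0.001). CLDN12 fell from 80.4, 81.9 and 82.6 CPM to 72.6, 48.8 and 58.4 CPM (log2 -0.45, SE 0.116, adjusted p = 0.013), with a far wider spread among the DOX libraries. Without vehicle replicate 1, vehicle replicate 3 or DOX replicate 3, CLDN12 no longer passed (adjusted p = 0.05, 0.055 and 0.05), which left no member lower in HSC3 cells.

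CLDN1 was at 553.3, 516.9 and 618.4 CPM with vehicle and 719.5, 566.1 and 635.0 CPM with DOX, and these overlapped. Its log2 change was 0.18 (SE 0.0912, adjusted p = 0.18) with a 95% interval of -0.02 to 0.38, which does not reach the fall of 1.48 seen in CAL27 cells. CLDN7 (18.8 to 20.2 CPM and 17.7 to 22.4 CPM), OCLN (10.9 to 18.5 CPM and 11.9 to 15.2 CPM) and F11R (82.1 to 88.6 CPM and 80.3 to 91.5 CPM) also overlapped between vehicle and DOX. Their adjusted p values were 0.89, 0.8 and 0.8, and the widest of their 95% intervals was that of OCLN, from -0.47 to 0.31. CLDN3 had 20 counts in DOX replicate 1, the library with the highest estimate of counts per molecule (16.3), and no count in the other HSC3 libraries, and CLDN8 had none in the 3 DOX libraries.

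Whether the response differed between the lines was tested directly, as the DOX response in HSC3 cells minus that in CAL27 cells. The response was higher in HSC3 cells for 2 members, CLDN1 and CLDN4, against 8.25% of all 20694 genes tested, and lower for 0 members, against 12.3%. With a fold change above 2 as well, 1 was higher (2.19% of all genes) and 0 were lower (3.02%). For CLDN1 the difference was 1.66 on the log2 scale (SE 0.12, adjusted p = 3e-07), as the gene fell in CAL27 cells and did not pass in HSC3 cells. For CLDN4, which rose in both lines, the rise in HSC3 cells was larger by 0.75 (SE 0.121, adjusted p = 0.00041). TJP1 differed by -0.02 (95% interval -0.19 to 0.14, adjusted p = 0.89), so a difference in either direction above 0.19 lies outside the interval. The differences for CLDN7, CLDN12, OCLN and F11R did not pass (adjusted p = 0.69, 0.52, 0.26 and 0.22). CLDN12 passed when HSC3 DOX replicate 1 was left out (log2 -0.30, adjusted p = 0.014). CLDN3 and CLDN8 give no difference because both are at the counting limit in HSC3 cells.

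CLDN16, the neighbour of CLDN1 whose start lies across the interval printed above, was low in every library. It was at 12.3 ± 0.997 CPM in CAL27 cells with vehicle and fell to 4.98 ± 0.852 CPM with DOX (log2 -1.32, SE 0.104, adjusted p = 1.1e-08). In HSC3 cells it was at 1.53 ± 0.586 and 2.67 ± 0.471 CPM (log2 0.79, SE 0.291, adjusted p = 0.066), and the responses differed between the lines by 2.10 (SE 0.307, adjusted p = 0.00016). In each of the 12 libraries the CLDN16 count was between 0.198% and 0.463% of the CLDN1 count. In GENCODE the genes do not overlap, with 94 bases between them. The libraries were made with a stranded kit, but the strand setting and annotation used for counting are not given in the sources used here. Whether reads of one gene were counted for the other was not tested. RefSeq places the CLDN16 starts elsewhere, so the 95-base spacing rests on the GENCODE annotation.

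Some members share exons with other annotated genes, which bears on their counts. Of the F11R exon bases, 36.6% are shared with ENSG00000270149, a readthrough gene of the same strand. For CLDN7 this share was 10.8% (ENSG00000262302), and for CLDN12 it was 7.92% with PTTG1IP2 and 5.17% with GTPBP10. The OCLN pseudogene OCLNP1 held 0.296 and 0.217 CPM in CAL27 and 1.497 and 1.92 CPM in HSC3 cells with vehicle and DOX. CLDN3 and CLDN4 are neighbours on chromosome 7 with 29271 bases between them, and their levels differed widely in both lines. Positions on GRCh38 were chr7:73768997-73770270 for CLDN3, chr7:73799542-73832690 for CLDN4, chr17:7259903-7263983 for CLDN7, chr21:30214006-30216097 for CLDN8 and chr7:90383721-90513402 for CLDN12. OCLN lies at chr5:69492292-69558104, F11R at chr1:160995211-161021343 and TJP1 at chr15:29699367-29968915.

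The other 83 listed genes of the junction and its regulators were counted in the same way. In CAL27 cells 72 were tested, with 16 lower, 20 higher and a median log2 change of 0.02, against -0.01 for all genes, of which 21.8% were lower and 22.6% higher. In HSC3 cells 72 were tested, with 7 lower, 15 higher and a median of 0.14, against -0.01 for all genes, of which 15.4% were lower and 13% higher. These all-gene shares are the background for the counts by list that follow. The response differed between the lines for 25 of 78 tested, 17 of them higher and 8 lower in HSC3 cells, against 8.25% higher and 12.3% lower among all genes.

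Of 14 scaffolds tested in CAL27 cells 3 were lower and 7 higher with DOX, and of 13 tested in HSC3 cells 1 was lower and 6 higher, against 21.8% and 22.6% of all genes in CAL27 and 15.4% and 13% in HSC3 cells. Cingulin (CGN), a cytoplasmic linker to actin and myosin, rose from 17.4 ± 1.19 to 22.9 ± 0.698 CPM in CAL27 cells and from 5.03 ± 0.429 to 19.9 ± 1.27 CPM in HSC3 cells (log2 0.39 and 1.98, adjusted p = 2.2e-05 and 9e-07). The rise in CGN was larger in HSC3 cells by 1.59 (adjusted p = 5.4e-07), in the direction of the CLDN4 difference. MAGI1, a multi-PDZ scaffold, rose by 0.56 and 1.36 on the log2 scale in CAL27 and HSC3 cells. TJP3 (ZO-3) fell in CAL27 cells from 7.73 ± 0.333 to 3.80 ± 0.662 CPM (log2 -1.03, adjusted p = 1.3e-07) and was at most 0.485 CPM on average in HSC3 cells (adjusted p = 0.27). Of the angiomotins, which bind polarity and Hippo proteins, AMOT fell in CAL27 cells (log2 -1.52, adjusted p = 1.4e-10) and had no count in HSC3, while AMOTL1 rose by 0.58 and 0.39 in CAL27 and HSC3 cells.

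Among the 18 other claudins, 10 were tested in each line. In CAL27 cells 1 was lower (CLDN16) and 1 higher (CLDN9, from 2.28 ± 0.179 to 5.93 ± 0.403 CPM, log2 1.38, adjusted p = 2.1e-09), and in HSC3 cells none passed. Under vehicle 7 of 15 tested were lower in HSC3 than in CAL27 cells and 0 were higher, against 32.3% and 30.6% of all genes. Several of the 7 were at or near 0 in HSC3 cells and entered the fit only through their CAL27 counts. For those, lower was the only call open. Of the 5 relatives of occludin and angulins, MARVELD3 rose in both lines (log2 0.22 and 0.76, adjusted p = 0.0033 and 0.00081), while ILDR1 and ILDR2, which mark corners where 3 cells meet, fell in CAL27 cells (log2 -0.54 each). LSR, the highest of this list per length, rose in CAL27 cells (log2 0.28) and did not pass in HSC3 cells. In the family of F11R, CLMP fell in HSC3 cells from 43.9 ± 0.619 to 16.65 ± 0.671 CPM (log2 -1.40, adjusted p = 7.3e-07) and was at 6.05 and 6.18 CPM in CAL27 cells.

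**Figure D4:**
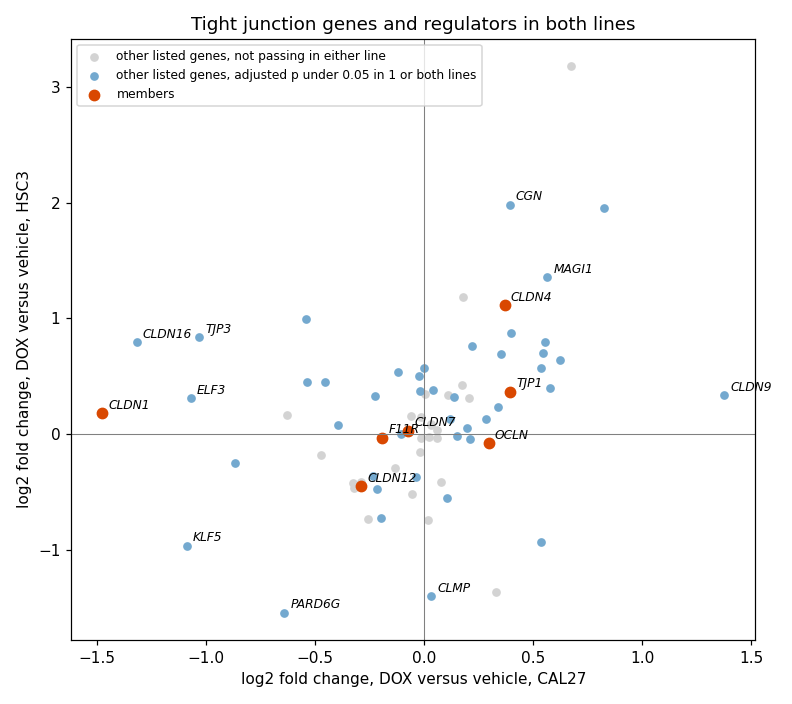
Log2 fold change of DOX against vehicle in CAL27 cells (x axis) and HSC3 cells (y axis) for the members (red) and the other listed genes (blue where the adjusted p was under 0.05 in 1 or both lines, grey otherwise). CLDN4, TJP1, CGN and MAGI1 lie to the upper right, CLDN1 lies far left near 0 on the y axis, and KLF5 lies to the lower left.

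Polarity genes split evenly in CAL27 cells, with 4 lower and 4 higher of 11, and in HSC3 cells 1 was lower and 3 higher. PALS1, of the Crumbs complex, rose in both lines (log2 0.53 and 0.57), and PARD6G, of the PAR complex, fell in both (log2 -0.64 and -1.54). Of 8 junction-associated signalling genes 1 was lower and 2 were higher in CAL27 cells, and 2 were lower and 2 higher in HSC3 cells. VAPA, which binds occludin, fell in both lines (log2 -0.22 and -0.47, adjusted p = 0.00015 and 0.00038). Among 6 claudin partners and proteases, EPCAM rose in both lines (log2 0.40 and 0.87, adjusted p = 6.7e-06 and 2.8e-05) and ST14, the protease matriptase, fell in both (log2 -0.20 and -0.73, adjusted p = 0.00075 and 0.00024).

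Epithelial transcription factors were lower in 4 and higher in 1 of 9 tested in CAL27 cells, and lower in 1 and higher in 0 of 9 in HSC3 cells, against 21.8% and 22.6% of all genes in CAL27 and 15.4% and 13% in HSC3 cells. KLF5, the highest of them per length, fell in both lines, from 348.1 ± 21.2 to 164.0 ± 7.86 CPM in CAL27 cells and from 570.2 ± 18.9 to 292.5 ± 16.5 CPM in HSC3 cells (log2 -1.09 and -0.97). ELF3 fell in CAL27 cells (log2 -1.07, adjusted p = 5e-08) and did not pass in HSC3 cells (log2 0.31, adjusted p = 0.3), where it was at 2.67 against 51.2 CPM in CAL27 cells with vehicle. TFCP2L1 and GRHL1 had the same pattern. With vehicle and DOX, TFCP2L1 was at 66.7 and 36.6 CPM in CAL27 and 4.72 and 3.98 CPM in HSC3 cells. GRHL1 was at 11.8 and 8.63 CPM in CAL27 and 2.01 and 2.76 CPM in HSC3 cells. Of 5 mesenchymal transcription factors tested, 1 was higher in CAL27 cells and 0 in HSC3 cells. That gene was ZEB1, which is named after its value was seen (log2 0.55, adjusted p = 0.049) and was under 1 CPM on average in both CAL27 groups. SNAI2, the highest of them per length, did not pass with DOX in either line (adjusted p = 0.73 and 0.11) and under vehicle was higher in HSC3 cells (log2 1.52, adjusted p = 3.4e-12).

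The genes whose log2 CPM followed each member most closely over the 12 libraries are given as a description, since 4 group means largely set these correlations. Among 9393 well-expressed genes (log2 CPM of 3 or more on average), CLDN1 was followed by SP110 (Pearson r = 0.995), CSF1 and CHURC1 (0.989 each). CLDN8 had SP110 (0.992) and IFIH1 (0.992) after CASP1 (0.993). In HSC3 cells CLDN8 and CLDN3 were at or near 0, where a small constant added before the log largely set their values. For CLDN4 the closest were CBX6 (0.997), MARVELD3 (0.997) and FAM234B (0.995), and for TJP1 they were CHIC1 (0.996), RFFL and WWC2 (0.995 each). CLDN7 was closest to GNB1 and RPL14 (0.995 each), CLDN3 to CXADR (0.991), CLDN12 to CLK1 (0.963) and F11R to SSPN (0.955). OCLN, whose HSC3 vehicle libraries ran from 10.9 to 18.5 CPM, had no close match, with ZNF200 at 0.771.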

How the data were processed

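The mRNA libraries, 3 per group, were described by the study as cultured in triplicate; where these were not independent cultures, p-values measure technical spread. Per the labels, libraries were made with a stranded mRNA kit. The authors deposited raw read counts per gene symbol, 1 table per line. The submitters' processing notes name FastQC 0.11.9, STAR 2.7.9a and Subread 2.0.1 with featureCounts; the study names GRCh38.74 as the genome, and the strand setting of the counting, the handling of duplicates and the annotation counted are not given in the sources used here. Columns of the CAL27 DOX libraries carry numbers other than those of the samples and were used by group alone. No replicate pair of the 12 held the same values (0.646% to 3.34% of genes had equal counts).

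Genes were filtered (filterByExpr, count minimum 10, total 15), scaled by TMM and tested with edgeR 4.0.16 quasi-likelihood (R 4.3.3), per line for DOX and over 12 libraries for the lines and their difference. DESeq2 1.42.0, other scalings, no filter, counts divided by counts per molecule and leaving out each library were alternatives. Same-numbered vehicle libraries of the lines deviated together from their group means only weakly (r = 0.101, 0.142 and 0.198, at most 0.000971 between other numbers). Deviations within a group of 3 cancel, so these values are not independent. Between HSC3 vehicle replicate 3 and HSC3 DOX replicate 1 the value was 0.47. Neither the data nor the labels settle whether the numbers pair the vehicle libraries. The fit with a replicate block is an alternative, given where it changed a call. A simulated data set was used to check the scripts. CPM were computed here from the deposited counts on the TMM scale of the 12 libraries, and exon lengths are from GENCODE (GRCh38). Members were given by name, the other genes named were the 4 largest passing changes per list whose log2 CPM averaged 0 or more, and the highest per length, and for likeness the 3 highest Pearson r; some genes that this rule allows are not reported here. Members and lists were chosen with earlier results of these data known.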

Additional observations from a re-analysis of the deposited data

Results flagged for a closer look

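The comparison of the lines is given again for 2 members, because the test of the difference between the lines in the DOX response passed. For CLDN1 the response in HSC3 cells minus that in CAL27 cells was 1.66 on the log2 scale (SE 0.12, adjusted p = 3e-07), from -1.48 in CAL27 and 0.18 in HSC3 cells. For CLDN4 it was 0.746 (SE 0.121, adjusted p = 0.00041), from 0.37 and 1.11. Groups of 3 libraries were not tested for single libraries that stand apart.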

How the results depend on the processing

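Of 943 values recomputed for 66 results, 892 kept their direction and their side of the threshold or stayed within the allowed range, 5 lost the threshold, 6 gained it, 11 changed sign and 29 moved. Sign changes with library totals were those of CLDN12 (-0.10) and F11R (-0.18) between the lines; that scaling moves the median of all genes there from -0.118 to -0.388. Leaving out 1 library at a time, the log2 change of CLDN7 ran from -0.12 to 0.00023 in CAL27 and from -0.060 to 0.114 in HSC3 cells, that of OCLN in HSC3 cells from -0.24 to 0.15, and the difference for TJP1 between the responses from -0.055 to 0.035. In the same refits, members lower in HSC3 cells numbered 0 to 1, other listed genes higher there with a fold change above 2 numbered 2 to 4, and for the difference between the responses members lower numbered 0 to 1, members higher with a fold change above 2 numbered 1 to 2, other genes lower 5 to 9 and those with a fold change above 2 1 to 3. Where 2 members were higher with a fold change above 2, the second was CLDN3 or CLDN8, at or near 0 in HSC3 cells.

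With 1 fit over all 12 libraries, other listed genes lower and higher in CAL27 cells were 10 and 13 (16 and 20 in the line's own fit), other genes higher in HSC3 cells were 25 (15), those with a fold change above 2 were 5 (2), and members higher with a fold change above 2 were 2, the second being CLDN3 on 20 counts in 1 library. For the difference between the responses, DESeq2 gave 2 members higher with a fold change above 2. The second was CLDN3 or CLDN8, at or near 0 in HSC3 cells, and not CLDN4, whose difference was at most 0.867 in any refit. DESeq2 size factors gave 5 other genes lower (8), and counts divided by counts per molecule gave 1 other gene lower with a fold change above 2 (2). On the longest transcript CLDN1 made up 96.6%, 91.8%, 81.7% and 85.4% of the claudin sum. The cause was not tested for any of these.

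In HSC3 cells the correlations of same-numbered vehicle and DOX libraries were -0.198, 0.334 and -0.33, which gave no sign that the numbers pair these samples. With the replicate number as a block, 1 member was lower and 2 were higher in HSC3 cells, as without it. With the block over the 6 vehicle libraries 4 members were higher in HSC3 than in CAL27 cells, against 2 in the fit of 12 libraries. The added ones were CLDN12 (adjusted p = 0.0041) and OCLN (adjusted p = 0.047). CLDN12 also passed in the 6 vehicle libraries without the block, so its call changed with the libraries fitted. The block changed the call of no other member. No paired analysis was possible because the CAL27 DOX columns carry no sample number for the CAL27 response or the difference between the responses. Low counts, which stand for still fewer molecules by the estimate, limit CLDN3 in both lines and CLDN8 in HSC3 cells and in CAL27 cells with DOX.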
